A study of Mus musculus with 6 samples.

Results

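The genes described here are 10 that belong to the cellular response to low oxygen. They are the subunits of hypoxia-inducible factor 1 (*Hif1a* and *Arnt*), the genes of its oxygen sensing and turnover (*Egln1*, *Egln3* and *Vhl*) and 5 of its target genes (*Bnip3*, *Bnip3l*, *Vegfa*, *Slc2a1* and *Pdk1*). They were chosen by symbol, with glycolytic enzymes left out, and all 10 were found among 26216 gene symbols and among the 13108 symbols tested. RNA was sequenced from LT/ST-HSCs, the long-term and short-term haematopoietic stem cells of the bone marrow, in a study of the lymphotoxin β receptor (LTβR). Ltbr-/- (CD45.2) and Ly5.1 (CD45.1) LSKs, the Lin- Sca-1+ c-Kit+ bone marrow cells that contain the stem cells, were mixed and given to Ly5.1/Ly5.2 recipients after lethal irradiation. Cells of either genotype were sorted from these mixed chimeras after 6 weeks, as Lin- Sca-1+ c-Kit+ CD150+ CD48- cells that did not bind annexin V. The cells of 6 chimeras were pooled to 3 replicates of each genotype. Both groups thus came from irradiated hosts and had been transplanted. The donors of the Ltbr-/- replicates 1 and 2 were 13 and 10 weeks old, those of replicate 3 were 10 to 13 weeks old, and those of each Ly5.1 replicate were 7 to 13 weeks old. *Ltbr* is deleted from the germline in the Ltbr-/- donors, and the Ly5.1 donors are a congenic strain, so that genotype and strain cannot be told apart. The comparison asks which of the 10 genes differ between stem cells with and without LTβR.

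Hypoxia-inducible factor is a pair of a regulated α subunit and the constant subunit Arnt. In the presence of oxygen, prolyl hydroxylases such as those encoded by *Egln1* and *Egln3* mark the α subunit, and the von Hippel-Lindau protein with elongins B and C, Cul2 and Rbx1 then directs it to the proteasome. In low oxygen the α subunit escapes this fate and the pair activates genes of glucose uptake, glycolysis, mitochondrial turnover and vessel growth. Haematopoietic stem cells reside in bone marrow regions of low oxygen tension and are known to rely on glycolysis. Since the α subunit is controlled mainly through its stability, RNA levels do not measure the activity of the factor.

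Upstream sequences were taken from RefSeq for GRCm38.p6, which had entries for 9 of the 10 genes, in 11 start sites. The 250 bases before each start were searched on both strands for ACGTG and GCGTG, the core letters that hypoxia-inducible factor prefers. Either was found before 8 of the 11 starts (72.7%), against 38.6% of 32851 RefSeq promoters and 55.2% of the 11655 that belong to tested genes. ACGTG alone was found before 6 of the 11 starts (54.5%), against 16.6% and 21.7%. Both counts include a *Vegfa* start (window chr17:46025164-46025413) and the *Hif1a* start (window chr12:73907617-73907866), whose windows lie inside the genes. The upstream *Vegfa* start held neither motif. The window of the second *Pdk1* start also lies inside its gene. The windows are printed for *Egln1*, *Slc2a1* and *Bnip3*, whose RNA differed most between the genotypes, and for *Pdk1*, a target whose RNA did not pass the test. Capitals mark the matches, and each line reads 5′ to 3′ on the strand of the gene and ends at the base before the start. *Egln1* is at chr8:124949255-124949504 on the minus strand, *Slc2a1* at chr4:119108495-119108744 on the plus strand, *Bnip3* at chr7:138909507-138909756 on the minus strand and *Pdk1* at chr2:71872974-71873223 on the plus strand.
Egln1: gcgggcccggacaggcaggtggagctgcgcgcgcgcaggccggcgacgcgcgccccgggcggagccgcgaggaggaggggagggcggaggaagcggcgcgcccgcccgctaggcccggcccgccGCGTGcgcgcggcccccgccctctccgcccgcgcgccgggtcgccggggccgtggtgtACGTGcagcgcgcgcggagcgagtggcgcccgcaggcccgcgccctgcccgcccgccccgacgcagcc
Slc2a1: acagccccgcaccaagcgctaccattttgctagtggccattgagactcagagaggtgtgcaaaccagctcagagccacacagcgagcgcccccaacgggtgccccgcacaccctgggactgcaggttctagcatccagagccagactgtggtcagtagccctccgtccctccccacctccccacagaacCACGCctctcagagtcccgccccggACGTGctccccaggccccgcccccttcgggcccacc
Bnip3: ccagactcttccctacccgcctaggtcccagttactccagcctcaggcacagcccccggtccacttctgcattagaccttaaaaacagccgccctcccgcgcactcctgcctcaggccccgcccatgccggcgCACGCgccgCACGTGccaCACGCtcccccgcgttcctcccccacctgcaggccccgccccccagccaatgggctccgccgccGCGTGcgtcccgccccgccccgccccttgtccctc
Pdk1: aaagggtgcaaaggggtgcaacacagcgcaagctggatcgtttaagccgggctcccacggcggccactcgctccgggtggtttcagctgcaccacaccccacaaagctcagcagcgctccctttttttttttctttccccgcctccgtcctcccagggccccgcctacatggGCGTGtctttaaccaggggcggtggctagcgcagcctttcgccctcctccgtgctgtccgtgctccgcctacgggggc
In *Egln1* the matches were GCGTG from 126 to 122 and ACGTG from 68 to 64 bases before the start. *Slc2a1* held GCGTG on the other strand from 61 to 57 and ACGTG from 36 to 32 bases before its start. *Bnip3* had 5 matches, of which ACGTG on either strand overlap in CACGTG, from 108 to 103 bases before the start. CACGTG is also the E-box of other basic helix-loop-helix factors such as Myc. The printed window of *Pdk1* held GCGTG from 78 to 74 bases before the start, while neither motif was found before the other *Pdk1* start (chr2:71874654-71874903), before the start of *Vhl* or before 1 of the 2 *Vegfa* starts. Of the windows not printed, those of *Hif1a*, *Egln3* and the inner *Vegfa* start held ACGTG, and that of *Arnt* held GCGTG. The RNA of *Hif1a*, *Egln3* and *Arnt* did not pass the test. A match describes the letters in the window and does not show that a factor binds there.

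The deposited value of a gene is its normalised expression, the power of 2 of a regularized log, which scales each sample and draws weakly expressed genes towards their mean. Differences are given as log2 of Ltbr-/- over Ly5.1 with the standard error (SE) and the adjusted p from limma over all 13108 tested genes. A gene was called when its adjusted p was under 0.05 and its fold at least 1.5. *Ltbr* itself was at 24.2, 26.4 and 23.1 in the knockout samples, against 564, 549 and 522 in Ly5.1. Its level was thus lower in every Ltbr-/- sample (log2 difference −4.47, SE 0.08, adjusted p = 2.15e-32). Of the 10 stem cell markers examined, all but *Hoxb5* were present in both genotypes, among them *Kit*, *Procr*, *Mecom* and *Hlf*. *Hoxb5* had means of 33.2 in Ltbr-/- and 31.8 in Ly5.1, near the level of *Ltbr* in the knockout, so its presence is uncertain. The files hold no read counts, and the study's methods give only an average number of reads per sample, so the reads behind a single value cannot be given. With pooled cells, fewer cells of a type and less RNA per cell cannot be told apart.

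Of the 10 genes, *Egln1* and *Slc2a1* were called higher in Ltbr-/- LT/ST-HSCs and 0 were called lower. Among all tested genes, 2.72% were called higher and 0.061% lower. Counting by adjusted p alone, *Egln1*, *Slc2a1*, *Bnip3* and *Vegfa* were higher and *Vhl* was lower, against 10.6% higher and 4.18% lower among all tested genes. The remaining 5, *Hif1a*, *Arnt*, *Egln3*, *Bnip3l* and *Pdk1*, did not pass the test. Values of the genotypes did not overlap for 6 of the 10 genes, against 30.4% of all tested genes. The median difference of the 10 genes was 0.04, and that of all tested genes −0.01. Calls were more frequent among strongly expressed genes. Among the 25% of symbols with the highest mean, 5.16% were called higher, and 2 of the 5 hypoxia genes in that range were called. The count by adjusted p fell from 5 to 3 when Ltbr-/- replicate 1 or 3 or Ly5.1 replicate 1 or 3 was left out.

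**Figure D1:**
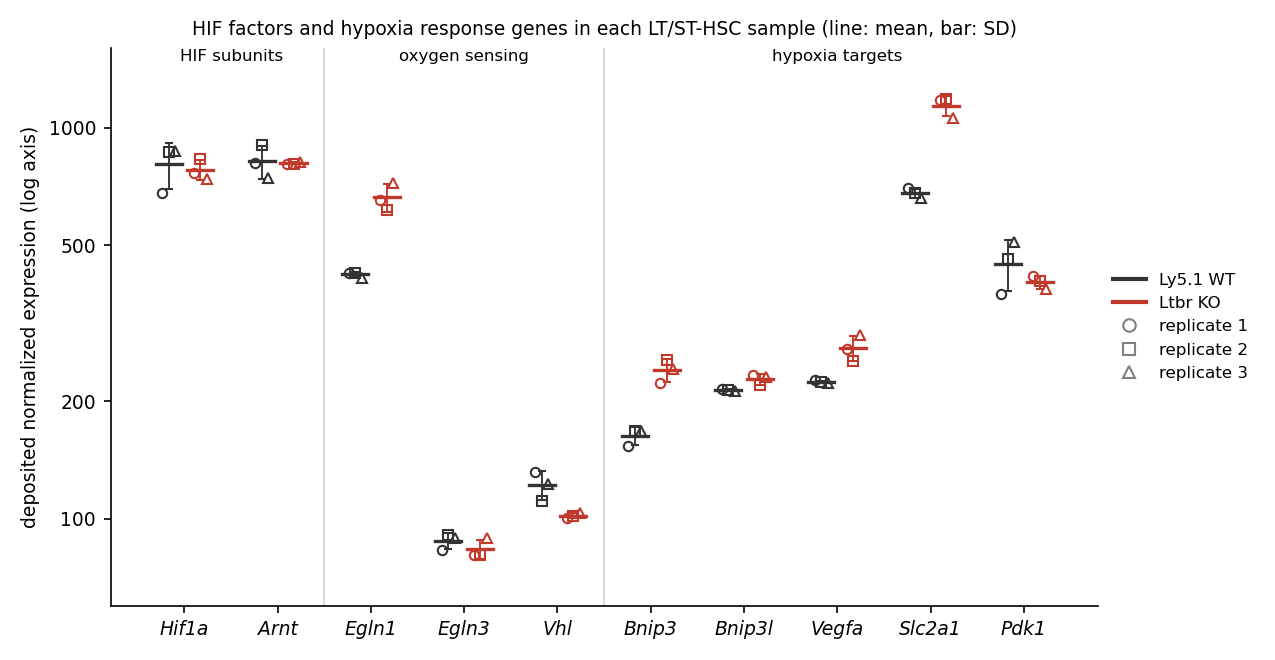
Deposited normalised expression (log axis) of the 10 genes in each of the 3 Ly5.1 (black) and 3 Ltbr-/- (red) samples, with symbols for replicates, lines for means and bars for the SD. The Ltbr-/- values of *Egln1*, *Bnip3*, *Vegfa*, *Slc2a1* and, by little, *Bnip3l* all lie above the Ly5.1 values. Those of *Vhl* all lie below, and *Hif1a*, *Arnt*, *Egln3* and *Pdk1* overlap.

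The subunits of the factor did not pass the test. *Hif1a*, which encodes the oxygen-regulated subunit (GRCm38.p6, chr12:73901324-73947554), had values of 768, 832 and 741 in Ltbr-/- (replicates 1, 2 and 3, as for all values that follow) and of 679, 865 and 871 in Ly5.1. The genotypes overlapped, and Ly5.1 replicate 1 had the lowest value of the 6 samples. The means were 780 ± 46.9 (SD, n = 3) and 805 ± 109 (SD, n = 3), with a log2 difference of −0.04 (SE 0.10, adjusted p = 0.850) and a 95% confidence interval from −0.23 to 0.16. The sign depended on single samples, as the difference ran from −0.16 without Ly5.1 replicate 1 to 0.024 without Ly5.1 replicate 3.

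*Arnt*, the constant partner subunit (chr3:95434367-95497240), had values of 808, 809 and 816 in Ltbr-/- and of 812, 904 and 745 in Ly5.1. The 3 Ltbr-/- values were nearly equal and lay within the range of the Ly5.1 values. The log2 difference was −0.01 (SE 0.09, adjusted p = 0.954), with an interval from −0.20 to 0.17. Within a group, the log2 values of *Arnt* spanned 0.01 in Ltbr-/- and 0.28 in Ly5.1.

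Of the 3 genes of oxygen sensing, *Egln1* was called higher, *Vhl* was lower by adjusted p alone and *Egln3* did not pass. *Egln1* (chr8:124908587-124949254) encodes Phd2, the main oxygen sensor among the prolyl hydroxylases, and is itself a target of the factor. Its values were 655, 615 and 724 in Ltbr-/- and 426, 424 and 414 in Ly5.1. Every Ltbr-/- sample lay well above every Ly5.1 sample. The means of 665 ± 54.8 (SD, n = 3) and 421 ± 6.48 (SD, n = 3) differed by 0.65 on the log2 scale (SE 0.09, adjusted p = 9.75e-07), a 1.57-fold rise. The interval ran from 0.47 to 0.84, and the difference ran from 0.59 to 0.71 as samples were omitted singly.

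*Egln3*, which encodes the related hydroxylase Phd3 (chr12:54178981-54203874), had values of 80.8, 81.0 and 89.2 in Ltbr-/- and of 83.2, 90.8 and 89.3 in Ly5.1. These values overlapped, and the difference of −0.07 did not pass (SE 0.08, adjusted p = 0.606, interval from −0.22 to 0.08). The interval of *Egln3* thus lay wholly below that of *Egln1*.

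*Vhl* (chr6:113623994-113631634) encodes the recognition subunit of the ligase that degrades the α subunit. It had values of 101, 102 and 103 in Ltbr-/- and of 132, 111 and 123 in Ly5.1. All 3 Ltbr-/- values lay below the lowest Ly5.1 value, and Ly5.1 replicate 1 was the highest of the 6. The log2 difference was −0.26 (SE 0.08, adjusted p = 0.0306), or 0.838-fold. This call by adjusted p was lost without any of the Ltbr-/- replicates 1, 2 and 3 (adjusted p = 0.0913, 0.0723 and 0.0744) and without Ly5.1 replicate 1 or 3 (0.158 and 0.0582), while the difference stayed between −0.32 and −0.20. *Vhl* lies 11.7 Mb from *Ltbr* on chromosome 6. Of the 103 tested genes between them, 15 were higher and 2 lower by adjusted p (16.5%), a share near the 14.8% of all tested genes. With the fold also required, 10 of the 103 were called higher and 0 lower, against 2.72% and 0.061% of all tested genes. The genotypes did not overlap for 45 of the 103, against 30.4% of all tested genes. Which strain this stretch derives from in the Ltbr-/- donors was not tested.

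Among the 5 target genes, *Slc2a1* rose most. It encodes Glut1, the basal glucose transporter (chr4:119108745-119137330), and had values of 1174, 1181 and 1061 in Ltbr-/- and of 699, 680 and 663 in Ly5.1. The lowest Ltbr-/- value was far above the highest Ly5.1 value. The means were 1139 ± 67.2 (SD, n = 3) and 681 ± 18.2 (SD, n = 3), a 1.67-fold rise with a log2 difference of 0.74 (SE 0.09, adjusted p = 2.78e-08) and an interval from 0.56 to 0.92. Leaving out each sample in turn kept the difference between 0.71 and 0.79.

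*Bnip3* (chr7:138890836-138909506) encodes a mitochondrial protein that recruits the autophagy machinery. Its values were 222, 254 and 242 in Ltbr-/- and 153, 168 and 168 in Ly5.1. The genotypes did not overlap, and the log2 difference was 0.55 (SE 0.09, adjusted p = 1.66e-05), or 1.47-fold, just short of the fold threshold. Without Ltbr-/- replicate 1 it rose to 0.61 and was called, which made 3 of the 10 genes. The value of *Bnip3* is uncertain because 45.7% of the 76-base windows of its longest protein-coding transcript also occur in other annotated genes, among them AC160336.1, Gm45507, Gm16439 and Gm6532. None of these is listed in the files, and 504 exon bases of *Bnip3* lie opposite Gm45507.

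*Bnip3l*, which encodes Nix, a related mitophagy receptor (chr14:66985238-67008877), had values of 233, 220 and 230 in Ltbr-/- and of 215, 214 and 212 in Ly5.1. The Ltbr-/- values all lay above the Ly5.1 values, but by little, and the log2 difference of 0.09 did not pass (SE 0.09, adjusted p = 0.564, interval from −0.09 to 0.27). Of its windows, 18.6% are shared with *Bnip3l-ps*, so this value is uncertain as well.

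*Vegfa*, the vascular endothelial growth factor (chr17:46016993-46032377), had values of 272, 254 and 295 in Ltbr-/- and of 226, 223 and 222 in Ly5.1. The Ly5.1 samples were nearly equal, and every Ltbr-/- sample was above them. The log2 difference was 0.29 (SE 0.09, adjusted p = 0.0315), or 1.22-fold. As for *Vhl*, the call by adjusted p alone was lost without most samples. These were Ltbr-/- replicate 1 or 3 (adjusted p = 0.0749 and 0.174) and Ly5.1 replicate 1, 2 or 3 (0.0615, 0.0775 and 0.0598). The difference stayed between 0.23 and 0.34.

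*Pdk1* encodes pyruvate dehydrogenase kinase 1, which holds pyruvate back from the mitochondrial citric acid cycle (chr2:71873215-71903858). It had values of 417, 404 and 387 in Ltbr-/- and of 376, 461 and 509 in Ly5.1. The Ltbr-/- values fell inside the range of the Ly5.1 values, of which replicate 1 was again the lowest. The log2 difference was −0.15 (SE 0.10, adjusted p = 0.370, interval from −0.35 to 0.06). The intervals of *Pdk1* and *Slc2a1*, both targets in glucose use, did not overlap.

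**Figure D2:**
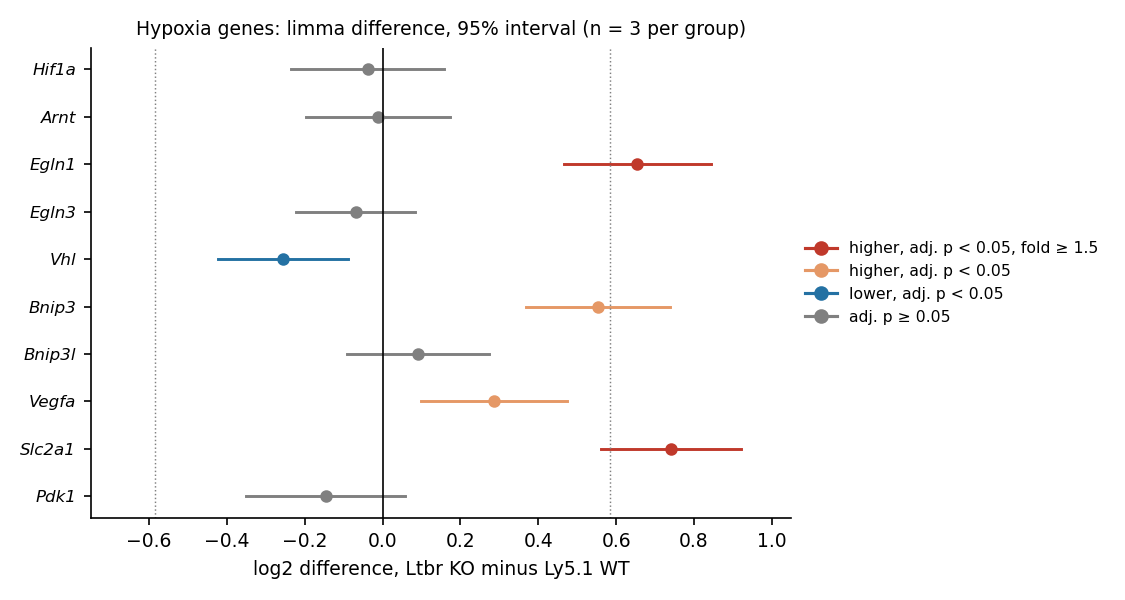
Log2 difference of Ltbr-/- minus Ly5.1 from limma (points) with 95% confidence intervals (lines) for the 10 genes, n = 3 per group, with dotted lines at 1.5-fold. *Slc2a1* (0.74) and *Egln1* (0.65) lie past the dotted line, *Bnip3* (0.55) just inside it, and *Vhl* (−0.26) is the only one of the 10 that passed on the lower side with this scaling.

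These directions are relative to the bulk of genes. When each sample was instead centred on the ribosomal protein genes, 68 of 76 of which were called higher in Ltbr-/-, the median of all tested genes moved to −0.84. All 10 genes then had a difference below 0, and 12 of the partner genes, 20 of the further targets and 7 of the glycolytic enzymes described after them were called lower and 0 higher. This scaling shifts every gene by the same amount, so distances from the median cannot change and are no check of the directions. Relative to the new median the differences were 0.75 for *Slc2a1*, 0.67 for *Egln1*, 0.57 for *Bnip3*, 0.30 for *Vegfa* and −0.24 for *Vhl*.

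Exact two-sided permutation tests of the sample values gave p = 0.1, the smallest possible with 3 against 3, for each of the 6 genes whose groups did not overlap. For the others the exact permutation p was 0.2 for *Egln3*, 0.4 for *Pdk1* and 0.8 for *Hif1a* and *Arnt*. This design cannot reach 0.05 for a single gene by permutation.

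Ratios within a sample do not depend on a single scaling factor per sample, and 4 were compared. Quantile normalization applies no such single factor. With it, the 4 differences that follow became 0.70, 0.46, −0.02 and 0.20 in turn. The log2 ratio of *Egln1* to *Egln3* was 3.02, 2.93 and 3.02 in Ltbr-/- and 2.36, 2.23 and 2.21 in Ly5.1. The groups did not overlap, and their means of 2.99 ± 0.05 (SD, n = 3) and 2.26 ± 0.08 (SD, n = 3) differed by 0.72 (exact permutation p = 0.1, adjusted over the 4 ratios 0.2). For *Bnip3* over *Bnip3l* the log2 ratio was −0.07, 0.21 and 0.08 in Ltbr-/- and −0.48, −0.35 and −0.34 in Ly5.1. These groups did not overlap either (difference 0.46, exact permutation p = 0.1, adjusted 0.2). *Hif1a* over *Arnt* overlapped, with −0.07, 0.04 and −0.14 against −0.26, −0.06 and 0.23 (difference −0.03, exact permutation p = 0.8). *Hif1a* over *Vhl* overlapped too, at 2.93, 3.03 and 2.84 against 2.37, 2.96 and 2.83 (difference 0.22, exact permutation p = 0.4, adjusted 0.533). Its low Ly5.1 value belonged to replicate 1, without which the difference was 0.042.

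**Figure D3:**
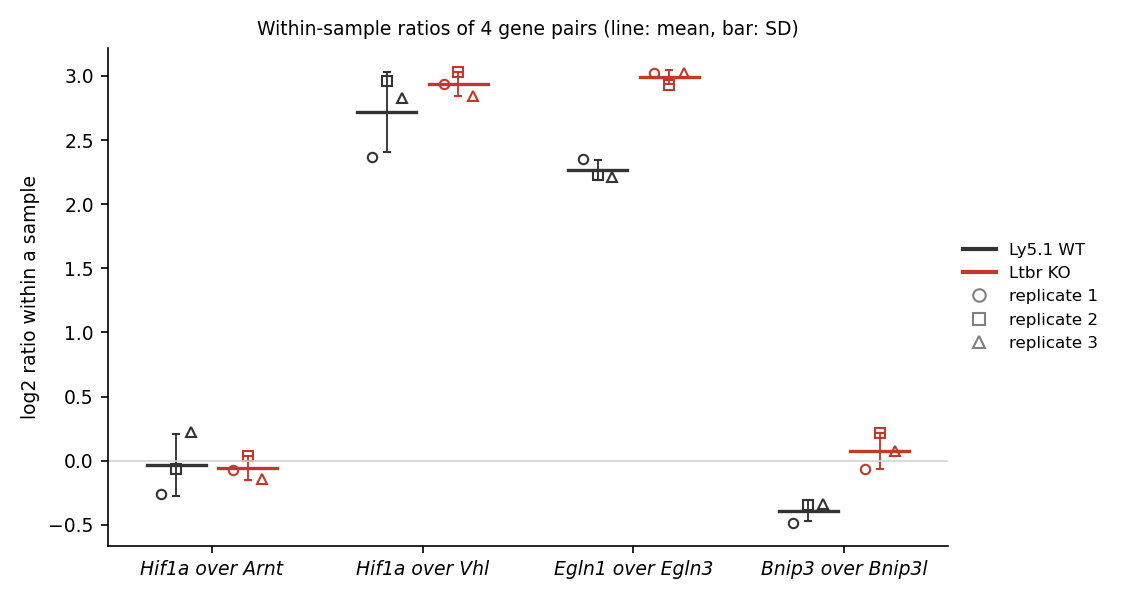
Log2 ratios within each sample for 4 gene pairs in Ly5.1 (black) and Ltbr-/- (red), with symbols for replicates, lines for means and bars for the SD. *Egln1* over *Egln3* and *Bnip3* over *Bnip3l* were higher in all 3 Ltbr-/- samples, while the ratios of *Hif1a* to *Arnt* and to *Vhl* overlapped.

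To compare levels between genes, the deposited values were divided by the length of the longest protein-coding transcript in kb. In Ly5.1 cells *Slc2a1* was highest at 209 ± 5.57 per kb (SD, n = 3), followed by *Arnt* at 190 ± 18.4 and *Hif1a* at 170 ± 23.1. *Arnt* overlapped both neighbours within 1 SD. *Egln1* came next at 117 ± 1.80, above *Bnip3* at 92.9 ± 4.75 and *Pdk1* at 86.6 ± 13.0, which did not differ beyond their spread. *Bnip3l* at 65.5 ± 0.41 and *Vegfa* at 64.8 ± 0.53 were alike within their spread, and *Vhl* at 43.7 ± 3.68 and *Egln3* at 33.0 ± 1.51 were the lowest of the 10. In Ltbr-/- cells the mean of *Egln1*, at 185 per kb, stood between those of *Arnt* (187) and *Hif1a* (165).

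Genes that work with these 10 were examined as a list of 15 oxygen-sensing partners, of which 14 were tested and 0 were called. Among all tested genes 2.72% were called higher and 0.061% lower. By adjusted p 2 of the 14 partners were higher and 0 lower, against 10.6% and 4.18% of all tested genes. Their median difference was −0.04. Both higher partner genes encode elongins, the adaptors of the Vhl ligase. *Tceb1* (elongin C) had values of 743, 872 and 817 in Ltbr-/- and of 647, 570 and 532 in Ly5.1, a difference of 0.48 (SE 0.10, adjusted p = 0.000293). *Tceb2* (elongin B) had 790, 730 and 822 against 634, 570 and 692, a difference of 0.31 (SE 0.09, adjusted p = 0.0215). Neither gene overlapped between the genotypes. *Tceb2* did not pass by adjusted p without Ltbr-/- replicate 1 or 3 (adjusted p = 0.0667 and 0.117) or Ly5.1 replicate 2 (0.136). The next by p-value were *Siah2* (0.23, adjusted p = 0.135), a ligase for the hydroxylases, *Cited2* (0.21, 0.136), which competes with the factor for coactivators, and the coactivator *Crebbp* (−0.21, 0.160). These 3 did not pass. *Arnt2* was listed at 1 in every sample.

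A list of 40 further targets of the factor, of which 31 were tested, gave 7 genes called higher and 0 called lower. Among all tested genes 2.72% were called higher and 0.061% lower. The median difference of the 31 was 0.11. By adjusted p 11 were higher and 1 was lower. *Hmox1*, the haem-degrading enzyme, had values of 2726, 2647 and 2740 in Ltbr-/- and of 1077, 1225 and 1355 in Ly5.1 (difference 1.16, adjusted p = 2.80e-13). It is also a target of the oxidative stress factor Nrf2. *Fam162a*, a mitochondrial protein gene, had 4817, 5336 and 5381 against 2162, 2580 and 2585 (1.09, adjusted p = 2.21e-13), and the cytokine gene *Mif* had 4745, 4856 and 5200 against 2276, 2208 and 2749 (1.04, adjusted p = 1.06e-12). In each of these genes the lowest Ltbr-/- value was above the highest Ly5.1 value by a wide margin.

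The other genes called were *Ero1l*, an oxidase of disulfide bond formation (0.92, adjusted p = 4.12e-10), *Ankrd37* (0.76, adjusted p = 3.76e-08), *Higd1a*, which acts at the respiratory chain (0.65, adjusted p = 2.69e-06), and the transcriptional repressor gene *Bhlhe40* (0.63, adjusted p = 4.25e-06). *Bhlhe40* fell under the fold threshold without Ltbr-/- replicate 2 (0.58) or Ly5.1 replicate 1 (0.55). Windows shared with other genes made up 59.9% of *Mif*, 34.2% of *Higd1a* and 14.5% of *Fam162a*, whose values are uncertain for that reason. Of the genes not called, the mitochondrial protease gene *Lonp1* had the lowest p (0.53, adjusted p = 9.55e-07), and it passed the fold threshold without Ly5.1 replicate 3 (0.59). The glycogen synthase gene *Gys1* (0.37, adjusted p = 0.00548) and the mTORC1 inhibitor gene *Ddit4* (0.34, adjusted p = 0.00978) followed. Neither passed by adjusted p without Ltbr-/- replicate 3 (adjusted p = 0.0777 and 0.0743) or Ly5.1 replicate 2 (0.0522 and 0.0720). *Vldlr*, a lipoprotein receptor gene, was lower (−0.32, adjusted p = 0.0187), and the demethylase gene *Kdm4b* was higher (0.26, adjusted p = 0.0452). *Vldlr* did not pass by adjusted p without Ltbr-/- replicate 2 or 3 (adjusted p = 0.0901 and 0.101) or Ly5.1 replicate 1 or 2 (0.0505 and 0.103). Nor did *Kdm4b* without Ltbr-/- replicate 2 or 3 (adjusted p = 0.205 and 0.135) or Ly5.1 replicate 2 or 3 (0.120 and 0.0979). The 19 other tested targets, *Car9*, *Ndrg1* and *Kdm3a* among them, did not pass. *Lox*, *Adm*, *Edn1* and *Epo* were listed at 1 in every sample.

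**Figure D4:**
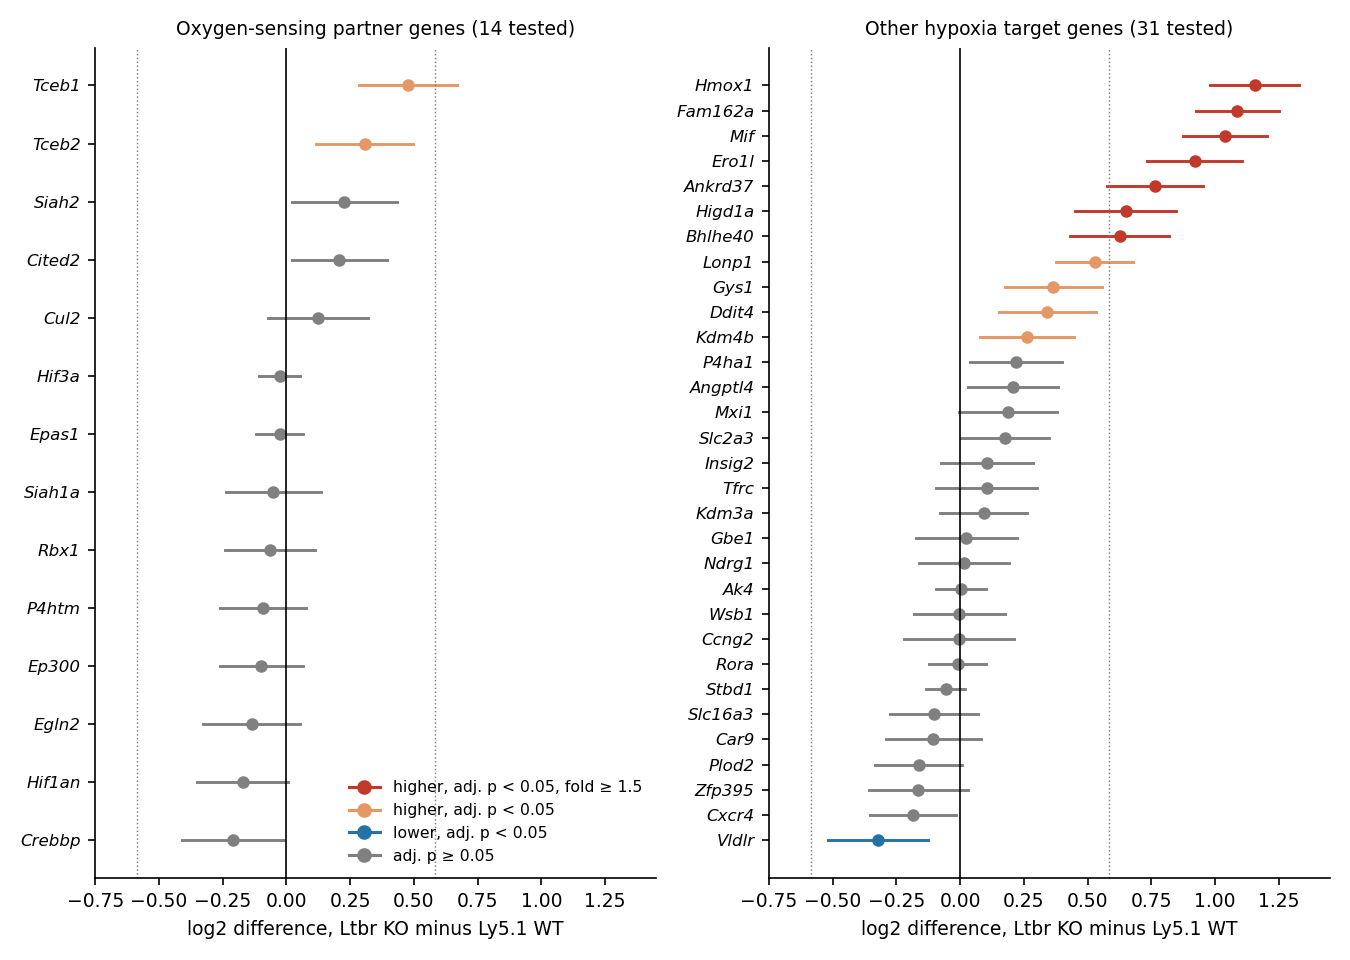
Log2 difference of Ltbr-/- minus Ly5.1 (points) with 95% confidence intervals (lines) for 14 oxygen-sensing partner genes (left) and 31 further hypoxia target genes (right), n = 3 per group, with dotted lines at 1.5-fold. The targets run from *Vldlr* (−0.32) to *Hmox1* (1.16) with 7 called higher, and 0 partners are called with this scaling.

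Of 10 relatives of the 5 target genes, 8 were tested and 0 were called, against 2.72% called higher and 0.061% lower among all tested genes. By adjusted p 1 was higher and 0 were lower, against 10.6% and 4.18% of all tested genes. *Vegfb*, a further member of the growth factor family, had values of 787, 845 and 886 in Ltbr-/- and of 541, 531 and 614 in Ly5.1 and was higher by adjusted p (0.58, adjusted p = 8.85e-06). It passed the fold threshold without Ltbr-/- replicate 1 (0.63) or Ly5.1 replicate 3 (0.65). *Slc2a6* (0.22, adjusted p = 0.0690), *Pdk3* (0.23, 0.0895), *Kdr* (−0.08, 0.262) and *Pdk2* (−0.13, 0.379) did not pass. Among 19 glycolytic enzyme genes, which the factor also drives, 9 were called higher and 0 lower, with the largest differences for *Aldoa* (1.23, adjusted p = 6.20e-19) and *Pgk1* (1.11, adjusted p = 2.47e-14). With quantile normalization 5 of the 19 were called. Among all tested genes 2.72% were called higher without it.

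For *Hif1a* and *Egln1* the tested genes with the most similar pattern over the 6 samples were found by the Euclidean distance of centred log2 values. The nearest to *Hif1a* were *Btaf1* at a distance of 0.099, *Snx27* at 0.102 and *D430020J02Rik* at 0.106. The nearest to *Egln1* were *Akr1c12* at 0.104, *Slc39a4* at 0.109 and *Gm14059* at 0.112.

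The 10 stem cell markers summed to 11474 to 12090 in Ltbr-/- against 12988 to 13342 in Ly5.1, and *Ly6a*, which encodes the gate antigen Sca-1, was lower (−0.39, adjusted p = 0.00160). Some markers of other blood cells also differed between the genotypes. The counts that follow are by adjusted p, against 10.6% higher and 4.18% lower among all tested genes. The 8 neutrophil genes examined were all lower by adjusted p, and their summed level was 42902 to 43418 in Ltbr-/- against 56241 to 60671 in Ly5.1. The 7 mast cell and basophil genes summed to 7526 to 8097 against 4134 to 4721, with 2 higher and 1 lower, and the 7 erythroid genes summed to 3768 to 4108 against 2858 to 3097, with 1 higher. The 7 B and plasma cell genes summed to 1453 to 1582 against 2313 to 2475, with 1 higher and 2 lower. Of the 7 monocyte and macrophage genes 2 were higher and 1 lower (6929 to 7619 against 7693 to 8131), and of the 5 tested megakaryocyte and platelet genes 1 was higher and 1 lower (14131 to 14922 against 11965 to 13306). The largest part of the mast cell sum was *Cma1* (means 5470 against 2195), of the erythroid sum *Hba-a1* (2129 against 1083). That of the platelet sum was *Itga2b* (11640 against 9380). In these lists 4 of 7, 3 of 7 and 3 of 5 tested genes had a difference below 0. Of 7 immediate early genes 3 were lower (31646 to 33764 against 38501 to 40633). In the T and NK cell and in the stromal and endothelial lists 0 of 3 tested genes passed in either. Their part in the differences of the hypoxia genes was not tested.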

How the data were processed

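RNA from 6 samples, 3 Ltbr-/- and 3 Ly5.1, was sequenced, and groups were taken from the labels. Assembly in SeqMan NGen and quantification in ArrayStar were done by the authors, who deposited a normalised signal per gene, which from its values is 2 to the power of a regularized log. The submitters' processing notes name GRCm38 and mm10. The libraries were made with a stranded mRNA kit, but whether the counting used strand is not given in the sources used here, so it is not known whether reads of opposite overlapping genes were separated. Of 26595 values per sample, the row with the highest mean was kept for each symbol, and the upper 50% by mean were tested on log2 values in limma 3.58.1 (R 4.3.3; lmFit, then eBayes with a mean-variance trend) and Benjamini-Hochberg adjustment. The script was tested on simulated data. The files hold no counts, so no depth per gene or sample could be used, and precision rests on 3 pooled replicates per group. The p-values combine a gene's own spread between these pools with the mean-variance trend over all tested genes. *Arnt* and *Bnip3l* both had an SE of 0.09. Their log2 SDs were 0.007 and 0.045 in Ltbr-/- and 0.139 and 0.009 in Ly5.1.

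The 10 genes and all lists were chosen with earlier results of these data known. Named genes were the 10, every called partner, target or relative gene and the 5 of each list with the lowest p among those not called, the 2 glycolytic enzymes with the largest difference, and the 3 nearest patterns. Transcripts were from GENCODE M21. Alternatives included a replicate block, other filters, scalings, variance models and folds, a pseudocount of 10, and leaving out each sample.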

Additional observations from a re-analysis of the deposited data

How the results depend on the processing

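The counts of calls rest on the fold. Every one of the 364 genes past 1.5-fold had an adjusted p of at most 3.10e-05, and the highest adjusted p past the fold stayed at most 0.00493 with the block, with no trend, with robust estimation and with no filter. The count of 364 under these settings was thus set by the fold alone and says nothing about stability. Testing the upper 25% called 342. With the replicate block 2 of the 10 genes were called and 5 had an adjusted p under 0.05, with adjusted p = 0.0383 for Vhl and 0.0389 for Vegfa. Among the named genes the block ended only the call of Kdm4b by adjusted p (0.0554). The sources used here do not say whether same-numbered pools came from the same chimeras, and the correlations of same-numbered samples were 0.0314, −0.0052 and 0.0899. Over all genes the block left 1936 with an adjusted p under 0.05, of which 1863 were the same genes. Centring on the ribosomal protein genes made every call lower. It called 6 of the 10 genes (8 by adjusted p), 12 partners, 20 further targets, 7 glycolytic enzymes and 11721 genes in all, with differences of −0.17 for Egln1, −0.27 for Bnip3, −0.74 for Bnip3l, −0.54 for Vegfa and −0.087 for Slc2a1, since the scaling itself moved the median of all genes to −0.84. A fold of at least 2 left 0 of the 10 genes, 3 further targets, 2 glycolytic enzymes and 42 genes in all. Testing the upper 25% left 5 of the 10 genes, 2 of them with an adjusted p under 0.05, and quantile normalization called 5 glycolytic enzymes. Leaving out each sample gave 3 to 4 genes with an adjusted p under 0.05, and differences from −0.16 to 0.024 for Hif1a, from −0.079 to 0.060 for Arnt and from −0.14 to 0.10 for Hif1a over Arnt (−0.14 without Ly5.1 replicate 1, 0.015 without Ltbr-/- replicate 3 and 0.10 without Ly5.1 replicate 3). Egln1, Slc2a1 and Bnip3 kept an adjusted p under 0.05 and their direction in every alternative they were tested in other than the ribosomal centring. Shrinkage in the deposited values understates differences of weakly expressed genes, and the files hold no counts to bound them.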
